A study of Mus musculus with 4 samples.

Results

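Macrophages clear modified lipoproteins, microbes and dying cells through a set of surface receptors that bind many unrelated ligands. The transcripts of 10 such receptors were followed here, found by an exact match of the gene name in a table of 55356 genes. They were the mannose receptor gene *Mrc1*, the class A scavenger receptors *Msr1* and *Marco*, the class B scavenger receptors *Cd36* and *Scarb1*, the hemoglobin-haptoglobin receptor *Cd163*, the stabilin *Stab1*, the receptor tyrosine kinases *Mertk* and *Axl*, and the phosphatidylserine receptor *Timd4*. Scavenger receptors take up oxidized lipids and polyanionic ligands. Uptake of apoptotic cells, termed efferocytosis, uses receptors that bind phosphatidylserine directly, such as the product of *Timd4*, or through bridging proteins. MERTK binds it through GAS6 and protein S, and AXL through GAS6. The lipid load that follows is handled by nuclear receptors of the LXR, PPAR and RXR families and by cholesterol exporters.

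RNA sequencing covered immortalized bone marrow-derived macrophages from *MK2*-KO mice, which carried either an empty *GFP* vector (i*MK2*-KO +*GFP*, hereafter +*GFP*) or a vector with *MK2* (i*MK2*-KO +*MK2*, hereafter +*MK2*) and were sorted for GFP. Both lines therefore share the knockout background and the retroviral vector, and each is 1 transduced population. In the labels the genotype of the second line is given as wt. Each line was left untreated (UT) or stimulated with IL-1α (5 ng/mL for 1 h). There was 1 library for each of the 4 conditions, so differences below could not be checked against replicates or tested. An effect of MK2 and any other difference between both lines cannot be told apart.

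The values are normalized counts as deposited, which summed to between 24891906 and 25733071 per library. *Mapkapk2*, the gene encoding MK2, had normalized counts of 561 (UT) and 1585 (IL-1α) in +*GFP* and 38357 and 38141 in +*MK2* cells, in the direction of the labels. Ratios were formed as log2 of the normalized counts after adding 1. Each 95% interval takes 1 normalized count as 1 read and covers counting error only. A ratio was called at 2-fold among the 12483 genes with a mean of at least 10 normalized counts over the 4 libraries. Of the 10 receptors, 6 reached this mean.

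The labelled cell type was checked against 12 genes that define macrophages. All 12 were detected, and their summed level lay between 130667 and 145796 normalized counts. *Lyz2* (lysozyme) had between 59858 and 64591, *Csf1r* (receptor for M-CSF) between 20290 and 27561 and *Cd68* between 15734 and 16876 normalized counts. *Spi1*, which encodes the transcription factor PU.1, *Itgam* and *Ptprc* differed by at most 0.32 on the log2 scale between the lines. In contrast, *Adgre1* and *Fcgr1* were lower in UT +*GFP* cells, with log2 ratios of -0.78 and -0.78, *Tyrobp* was higher at 0.54, and *Aif1* was low, with 10 to 58 normalized counts and a log2 ratio of -1.58. *Cd14*, the LPS co-receptor, had log2 ratios of 0.90 (UT) and 1.84 (IL-1α). The summed markers of neutrophils and mast cells reached 5 to 8, those of lymphocytes 4 to 15 and those of fibroblasts and endothelium 2 to 6 normalized counts per library, and *Ly6g*, *Mpo*, *Col1a1* and *Dcn* were at 0 in all libraries. Among 7 dendritic cell markers, *Flt3*, *Ccr7*, *Siglech* and *Cd209a* were at 0, while *Zbtb46* had 23 and 18 normalized counts in +*GFP* and 104 and 115 in +*MK2* cells. The part of these cell types in the results below was not tested. In such bulk libraries, fewer cells of a type and less RNA per cell cannot be told apart.

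The promoters of 4 receptors are shown, those with the lowest ratios between the lines among the 6 past the minimum, because these transcripts were lower together in +*GFP* cells. The sequences are from RefSeq (GRCm38.p6), from 250 bases before to 50 after the annotated start of the gene, and 8 of the 10 receptors had an entry. Those without were *Msr1* and *Scarb1*. The *Mrc1* promoter lies at chr2:14229164-14229463 on the plus strand, that of *Cd36* at chr5:17835847-17836146 on the minus strand, that of *Stab1* at chr14:31168592-31168891 on the minus strand and that of *Mertk* at chr2:128698665-128698964 on the plus strand. Capitals mark matches on either strand to GAGGAA (the PU.1 core), TGCTGA (a core of MAF family elements) and AGGTCA (the core bound by nuclear receptors such as RXR partners).
Mrc1: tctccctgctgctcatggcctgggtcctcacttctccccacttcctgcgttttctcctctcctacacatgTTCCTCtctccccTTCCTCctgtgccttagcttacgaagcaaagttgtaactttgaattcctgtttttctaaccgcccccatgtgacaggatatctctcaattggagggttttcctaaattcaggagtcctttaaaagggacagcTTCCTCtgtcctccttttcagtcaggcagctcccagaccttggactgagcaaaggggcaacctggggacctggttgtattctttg
Cd36: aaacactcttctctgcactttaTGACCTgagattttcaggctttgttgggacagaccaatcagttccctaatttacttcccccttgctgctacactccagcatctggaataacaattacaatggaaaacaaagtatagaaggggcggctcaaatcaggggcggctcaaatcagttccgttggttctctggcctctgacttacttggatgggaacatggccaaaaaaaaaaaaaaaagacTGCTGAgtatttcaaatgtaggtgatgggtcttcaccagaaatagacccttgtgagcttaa
Stab1: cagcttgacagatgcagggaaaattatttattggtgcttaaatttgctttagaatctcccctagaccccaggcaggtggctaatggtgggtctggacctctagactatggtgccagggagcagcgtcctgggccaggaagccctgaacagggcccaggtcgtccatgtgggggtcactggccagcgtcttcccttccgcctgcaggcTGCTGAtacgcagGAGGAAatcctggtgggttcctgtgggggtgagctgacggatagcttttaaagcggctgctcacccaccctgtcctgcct
Mertk: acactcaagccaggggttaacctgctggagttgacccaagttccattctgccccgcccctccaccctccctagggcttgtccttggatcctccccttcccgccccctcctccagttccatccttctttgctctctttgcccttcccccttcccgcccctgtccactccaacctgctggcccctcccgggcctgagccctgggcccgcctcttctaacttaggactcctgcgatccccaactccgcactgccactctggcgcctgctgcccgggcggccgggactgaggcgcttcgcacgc
The *Mrc1* promoter held 3 matches to GAGGAA, all on the opposite strand, where 28.3% of 32851 mouse promoters of the same length held at least 1. The share of promoters with as many as 3 matches was not counted. *Stab1* held 1 match to GAGGAA and 1 to TGCTGA, which did not overlap. *Cd36* held 1 match to TGCTGA and 1 to AGGTCA, motifs found in 19.5 and 16.3% of all promoters. Among the promoters not shown, those of *Marco* and *Axl* held 1 match each to GAGGAA. That of *Timd4* held 2 matches to TGCTGA and 1 to AGGTCA, and that of *Cd163* held none of the motifs. The *Mertk* window held none of these letters, so the 4 promoters shown share none of the motifs searched. *Cd36* can start at several sites, of which the table gives only this one.

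The receptors split into a group that was strongly lower in +*GFP* cells, a pair with nearly equal levels and a group at or near 0. *Mrc1*, *Cd36*, *Mertk* and *Stab1* were at least 2-fold lower in UT +*GFP* cells, which is 4 of 6 receptors, where 5.26% of all 12483 genes were at least 2-fold lower. None of the 6 was 2-fold higher (3.51% of all genes), and 8.77% of all genes were past 2-fold in either direction. After IL-1α, *Mrc1*, *Cd36* and *Mertk* remained past 2-fold, 3 of 6 receptors against 5.57% of all genes, and none was 2-fold higher (4.16%; 9.73% of all genes were past 2-fold either way). Of all genes, 3.6% were at least 2-fold lower in both comparisons. The median log2 ratio of the 6 receptors between the lines was -1.25 (UT) and -1.23 (IL-1α), beside medians of 0.02 and 0.03 over all genes. These counts leave out the 4 receptors of low values.

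**Figure D1:**
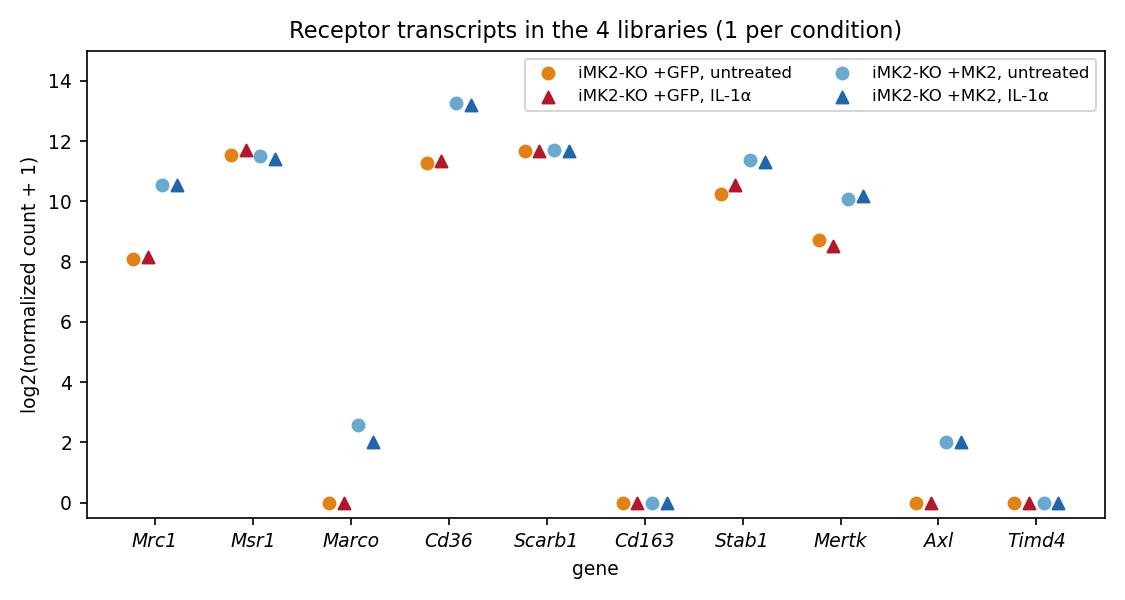
Values of the 10 receptor genes in the 4 libraries, as log2(normalized count + 1) on the vertical axis, with 1 point per library (orange and red, +*GFP*; light and dark blue, +*MK2*; circles, untreated; triangles, IL-1α). *Mrc1*, *Cd36*, *Stab1* and *Mertk* are lower in both +*GFP* libraries, *Msr1* and *Scarb1* lie close together, and *Cd163* and *Timd4* are at 0 throughout.

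*Mrc1* encodes the mannose receptor CD206, an endocytic receptor for mannosylated glycoproteins that is widely used as a marker of alternatively activated macrophages. It lies on chromosome 2 from 14234203 to 14336868 (positions as in the deposited table, whose genome build is not named). It had normalized counts of 273 (UT) and 282 (IL-1α) in +*GFP* and 1499 and 1488 in +*MK2* cells. Both +*GFP* libraries were far below both +*MK2* libraries, while both libraries within a line were nearly equal. The log2 ratio between the lines was -2.45 (interval -2.65 to -2.27) in UT cells, 5.47-fold lower, and only 223 of the 12483 genes (1.79%) had a lower ratio. After IL-1α it was -2.40 (-2.59 to -2.22), 5.26-fold lower.

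*Mrc1* also had the widest spread over the 4 libraries among the 10 receptors, with an SD of 1.40 on the log2 scale. Of 9892 genes with a mean of at least 100 normalized counts, the 3 whose values, centred on their own mean, lay closest to those of *Mrc1* in the worst of the 4 libraries were *Ada*, *Dab2* and *Itsn1*, with largest gaps of 0.06, 0.07 and 0.08 on the log2 scale. *Ada* encodes adenosine deaminase, and *Dab2* and *Itsn1* encode adaptors of clathrin-mediated endocytosis. *Dab2* had 2138 and 2207 normalized counts in +*GFP* against 11274 and 10746 in +*MK2* cells. The gaps were smaller than the counting error of *Mrc1* itself, whose response in +*GFP* cells had an interval of -0.20 to 0.29. Which genes lay closest is therefore not settled. With 4 libraries that mainly separate both lines, this likeness is a description of the lines.

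*Cd36* encodes a class B scavenger receptor for oxidized low-density lipoprotein, long-chain fatty acids and apoptotic cells. It lies on chromosome 5 from 17986688 to 18093799. It had normalized counts of 2471 (UT) and 2588 (IL-1α) in +*GFP* and 9790 and 9480 in +*MK2* cells. Again the libraries of both lines were far apart. The log2 ratio was -1.99 (-2.05 to -1.92) in UT cells, 3.96-fold lower, and -1.87 (-1.94 to -1.81) after IL-1α. *Scarb1*, on chromosome 5 from 125354151 to 125418158, encodes SR-B1, the class B receptor for high-density lipoprotein. Its normalized counts of 3271 and 3275 in +*GFP* and of 3351 and 3292 in +*MK2* cells were almost equal. Its log2 ratios of -0.035 (-0.10 to 0.04) and -0.0075 (-0.08 to 0.06) were within counting error, although both members belong to the same receptor class.

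*Msr1* encodes SR-A1, the main class A scavenger receptor of macrophages for acetylated lipoproteins, and lies on chromosome 8 from 40034726 to 40095714. It had normalized counts of 2960 (UT) and 3370 (IL-1α) in +*GFP* and 2902 and 2694 in +*MK2* cells. The UT libraries were equal within counting error, at a log2 ratio of 0.029 (-0.05 to 0.10), which changed sign to -0.030 with scaling to *Gapdh*. After IL-1α the ratio was 0.32 (0.25 to 0.40), 1.25-fold higher. *Marco*, on chromosome 1 from 120402267 to 120432753, encodes a class A receptor for bacteria and particles. It was at 0 in both +*GFP* libraries and had normalized counts of 5 (UT) and 3 (IL-1α) in +*MK2* cells. A count of 0 was taken to allow up to 3 counts, the floor used here. The exact Poisson interval of a count of 0 reached up to 3.69 and that of the 5 counts from 1.62 to 11.7. The counting interval of the UT log2 ratio had no lower end and an upper end of 0.13. With 1.3 reads per normalized count the upper end was -0.39, so whether this interval excluded 0 depends on that setting.

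*Stab1* encodes stabilin-1, an endocytic receptor for acetylated lipoprotein, SPARC and phosphatidylserine, and lies on chromosome 14 from 30860970 to 30890598. It had normalized counts of 1203 (UT) and 1476 (IL-1α) in +*GFP* and 2624 and 2531 in +*MK2* cells. Both +*GFP* libraries were lower, the IL-1α-treated one by less. The log2 ratio was -1.12 (-1.22 to -1.03) in UT cells and -0.78 (-0.87 to -0.68) after IL-1α. *Stab1* overlaps *Nt5dc2*, which had 567 and 563 normalized counts in +*GFP* against 1812 and 1740 in +*MK2* cells. The library kit marks strand, but whether the counting used it is not given in the sources used here, so a share of these reads could belong to the other gene.

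Among the efferocytosis receptors, *Mertk* encodes the TAM family kinase that macrophages use for uptake of apoptotic cells through GAS6 and protein S, and it lies on chromosome 2 from 128540876 to 128644814. It had normalized counts of 421 (UT) and 364 (IL-1α) in +*GFP* and 1093 and 1168 in +*MK2* cells. Both +*GFP* libraries were lower, with log2 ratios of -1.37 (-1.54 to -1.21) in UT cells, 2.59-fold lower, and -1.68 (-1.86 to -1.51) after IL-1α, 3.20-fold lower. *Axl*, on chromosome 7 from 25456698 to 25488130, encodes the second TAM kinase of this set. It was at 0 in both +*GFP* libraries and had 3 normalized counts in each +*MK2* library, at the limit that a count of 0 allows, so no fold is given. *Timd4*, on chromosome 11 from 46701627 to 46735159, encodes TIM-4, found mainly on resident macrophages. *Cd163*, on chromosome 6 from 124281615 to 124307486, is likewise a gene of resident and glucocorticoid-treated macrophages. Both were at 0 in all 4 libraries, which allows up to 3 counts in each.

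**Figure D2:**
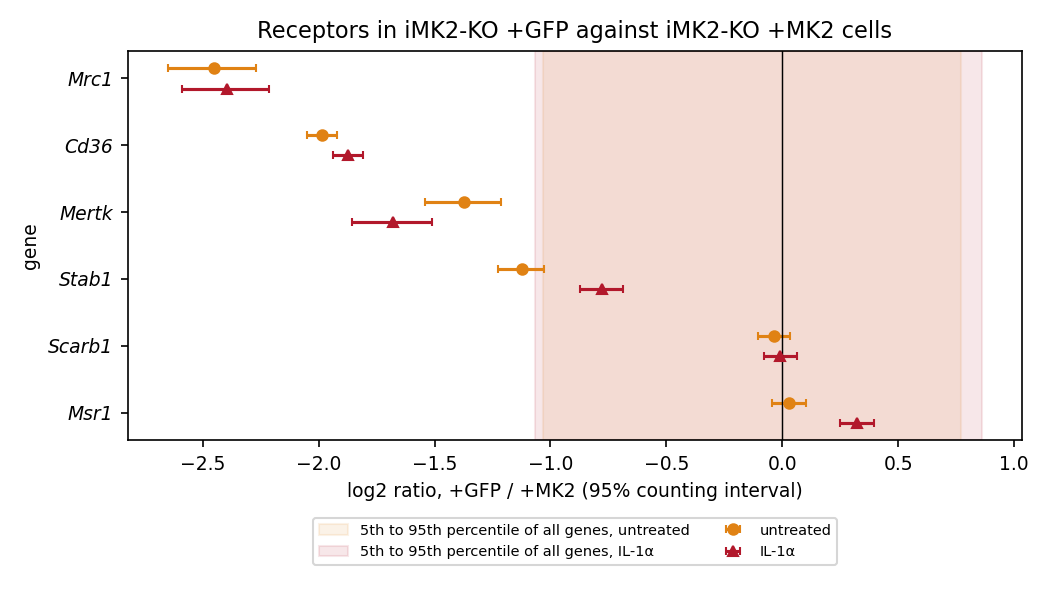
Log2 ratio of +*GFP* to +*MK2* cells (horizontal axis) for the 6 receptors with a mean of at least 10 normalized counts, untreated (orange circles) and after IL-1α (red triangles). Bars are 95% counting intervals and the shaded bands span the 5th to 95th percentile of all 12483 genes, from -1.03 to 0.77 (UT) and from -1.07 to 0.86 (IL-1α). *Mrc1*, *Cd36* and *Mertk* lie below both bands, *Stab1* at the lower edge in UT cells, and *Scarb1* and *Msr1* inside.

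For 5 of the 6 receptors, both +*GFP* libraries were below both +*MK2* libraries, as for 31% of all genes, and for *Msr1* both were above (37.2% of all genes). Values of both lines did not overlap for 68.1% of all genes, so the lack of overlap says little here and the size of the ratio is the measure to read. Counting intervals lay below 0 for 4 of 6 receptors in UT cells (26.9% of all genes). After IL-1α they lay below 0 for 4 (26.3% of all genes) and above 0 for *Msr1* (33.7%). Intervals excluded 0 in either direction for 57.7% and 60% of all genes.

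Levels of different genes were compared as normalized counts per kb of merged exon length (GENCODE M21). In UT +*GFP* cells the order was *Cd36* (688), *Msr1* (467), *Scarb1* (385), *Stab1* (117), *Mertk* (97.1) and *Mrc1* (42.9 per kb), with no overlap between the counting intervals of neighbours. In UT +*MK2* cells *Cd36* stood at 2727 per kb, followed by *Msr1* (457) and *Scarb1* (394). There the counting intervals of *Stab1* (255), *Mertk* (252) and *Mrc1* (235 per kb) overlapped, which does not show that their levels were equal. The order depends on the length used, at the top and further down. Per kb of the longest transcript, *Scarb1* came first in UT +*GFP* cells (1058), before *Msr1* (814) and *Cd36* (727). In UT +*MK2* cells *Cd36* stayed first (2880 per kb), and *Stab1* (328) and *Mrc1* (279) stood above *Mertk* (254 per kb).

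Treatment with IL-1α for 1 h changed these receptors little in either line. None of the 6 receptors reached 2-fold in +*GFP* cells, where 2.25% of all genes were at least 2-fold higher and 1.59% lower (3.85% either way), or in +*MK2* cells (0.889 and 1.03%, and 1.92% either way). In +*GFP* cells the intervals of 2 receptors lay above 0 (20% of all genes) and that of 1 below (12.3%), beside 32.3% in either direction. *Stab1* was higher after IL-1α by a log2 ratio of 0.29 (0.18 to 0.41) and *Msr1* by 0.19 (0.12 to 0.26), whereas *Mertk* was lower at -0.21 (-0.42 to -0.0041). *Mrc1* (0.05, interval -0.20 to 0.29), *Cd36* (0.07, -0.01 to 0.15) and *Scarb1* (0.0018, -0.07 to 0.07) were within counting error.

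In +*MK2* cells, intervals lay below 0 for 2 receptors (8.23% of all genes) and above 0 for none (11.4%), beside 19.6% in either direction. *Msr1* was lower after IL-1α at -0.11 (-0.18 to -0.03) and *Cd36* at -0.046 (-0.09 to -0.0055). *Mertk* stood at 0.10 (-0.02 to 0.22), *Stab1* at -0.052 (-0.13 to 0.03), *Scarb1* at -0.026 (-0.10 to 0.04) and *Mrc1* at -0.011 (-0.12 to 0.09). The response in +*GFP* cells exceeded that in +*MK2* cells by 0.35 (0.21 to 0.48) for *Stab1*, 0.29 (0.19 to 0.40) for *Msr1* and 0.11 (0.02 to 0.20) for *Cd36* on the log2 scale, and was below it for *Mertk*, at -0.31 (-0.54 to -0.07). For *Mrc1* (0.06, -0.20 to 0.32) and *Scarb1* (0.03, -0.07 to 0.13) the interval included 0. These intervals hold counting error alone, and whether the responses differ between the lines was not tested.

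**Figure D3:**
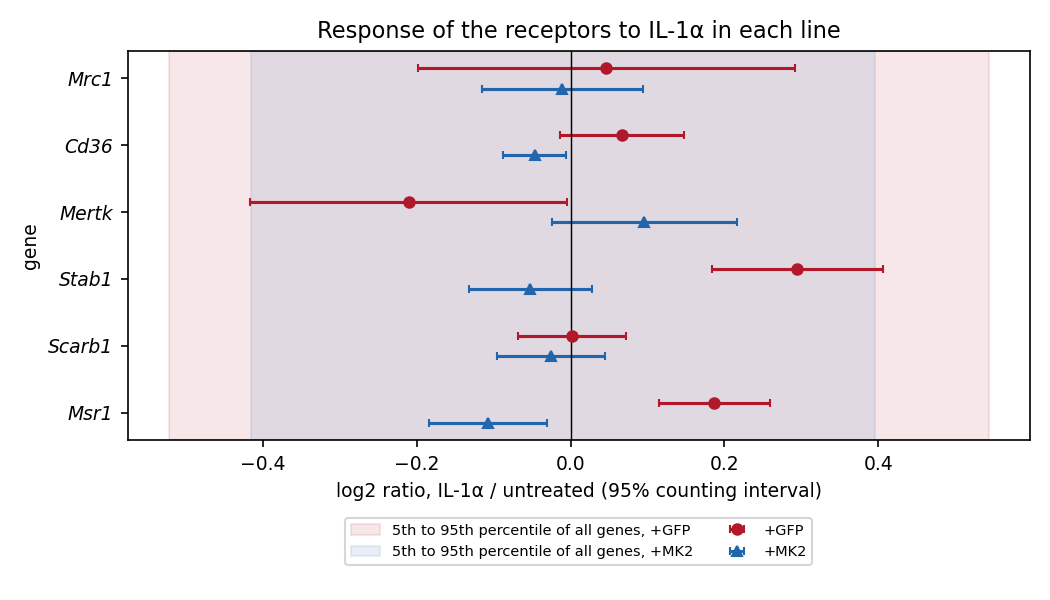
Log2 ratio of IL-1α-treated to untreated cells (horizontal axis) for the same 6 receptors in +*GFP* (red circles) and +*MK2* cells (blue triangles). Bars are 95% counting intervals and bands the 5th to 95th percentile of all 12483 genes. All 12 ratios lie between -0.21 and 0.29, inside the band of their own line.

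The genes that work with these receptors were read from whole lists, and calls and medians cover each gene past the minimum mean. Of 13 bridging and opsonin ligands, 9 had a mean of at least 10 normalized counts. In UT +*GFP* cells 4 of the 9 were at least 2-fold lower and none was 2-fold higher (5.26 and 3.51% of all genes), with a median log2 ratio of -0.99. *Gas6*, the bridging ligand of MERTK and AXL, had normalized counts of 873 (UT) and 762 (IL-1α) in +*GFP* and 5284 and 5382 in +*MK2* cells, with log2 ratios of -2.60 (-2.70 to -2.49) and -2.82 (-2.93 to -2.71). *Mfge8*, which bridges phosphatidylserine to integrins, had log2 ratios of -1.84 and -2.02. The complement subunit genes *C1qa* and *C1qc*, whose products opsonize dying cells, were lower at -1.95 and -1.80 in UT and at -1.34 and -1.47 in IL-1α-treated cells. *Edil3*, a homologue of *Mfge8*, was 2-fold higher only in the IL-1α-treated comparison, with log2 ratios of 0.97 and 1.52. After IL-1α the list counted 4 lower and 1 higher of 9 (5.57 and 4.16% of all genes), with a median of -0.78.

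Other receptors for apoptotic cells and other scavenger receptors held 1 of 9 and 2 of 8 genes past 2-fold in each comparison of the lines, beside 8.77% (UT) and 9.73% (IL-1α) of all genes. Of 13 other apoptotic cell receptors, 9 passed the minimum, and 1 was 2-fold lower in each comparison of the lines (medians -0.40 and -0.22). This was *Stab2*, the paralog of *Stab1*, with 1 and 0 normalized counts in +*GFP* and 42 and 7 in +*MK2* cells. Its UT log2 ratio was -4.43 (-10.7 to -2.84), and the counting interval after IL-1α had no lower end and an upper end of -0.53. *Tyro3*, the remaining TAM kinase, was at 0 in all libraries, so that *Mertk* was the only TAM kinase with more than 3 normalized counts in any library. Of 15 other scavenger receptors, 14 were in the table (*Cd163l1* was not found by this name) and 8 passed the minimum. Their medians were 0.03 (UT) and -0.03 (IL-1α), also with values of 0 set to the floor of 3 counts, and besides *Stab2* only *Olr1*, the receptor LOX-1 for oxidized lipoprotein, was called. *Olr1* had 17 and 40 normalized counts in +*GFP* and 0 and 1 in +*MK2* cells. The counting interval of its UT log2 ratio had a lower end of 2.04 and no upper end. In each IL-1α response *Olr1* was 2-fold higher and *Stab2* 2-fold lower, 1 of 8 each way. Of all genes, 2.25 and 1.59% (+*GFP*) and 0.889 and 1.03% (+*MK2*) were. *Olr1* responded by 1.19 (0.38 to 2.15) in +*GFP* and *Stab2* by -2.43 (-3.98 to -1.42) in +*MK2* cells. The remaining calls rest on values of 0 or 1. The genes of the engulfment machinery, among them the *Elmo*, *Dock* and *Rac* families, held no member past 2-fold among 14 in any of the 4 comparisons. Their line medians were -0.10 and -0.08. Past 2-fold were 8.77 and 9.73% of all genes between the lines and 3.85 and 1.92% in the responses, so a count of 0 among 14 is near the background.

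In the list of sterol and lipid handling, 21 of 22 genes passed the minimum, of which 3 were lower and 1 higher by 2-fold in UT +*GFP* cells (median 0.04) and 2 lower and 1 higher after IL-1α (median -0.09). Of all genes, 5.26% were lower and 3.51% higher in UT and 5.57 and 4.16% in IL-1α-treated cells. *Rxra*, the shared partner of LXR and PPAR receptors, had 535 and 528 normalized counts in +*GFP* against 3334 and 3259 in +*MK2* cells, with log2 ratios of -2.64 (-2.77 to -2.51) and -2.62 (-2.76 to -2.49). The cholesterol exporter gene *Abca1* and the fatty acid binding protein gene *Fabp4* were lower at -1.73 and -1.42 in UT cells and at -0.82 and -0.76 after IL-1α. Their responses to IL-1α in +*GFP* cells were 0.88 and 0.62, below 2-fold. *Mylip*, an LXR target, passed 2-fold only after IL-1α, at -1.04. *Pparg*, which encodes the receptor PPARγ that acts on the *Cd36* gene, went the opposite way to *Cd36*, with 198 and 203 normalized counts in +*GFP* and 96 and 75 in +*MK2* cells and log2 ratios of 1.04 (0.69 to 1.41) and 1.42 (1.05 to 1.84).

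Receptors such as MERTK can also be cut from the cell surface by ADAM17. Of 8 sheddase genes and their controls, 3 passed the minimum, with a median log2 ratio between the lines of 0.40 (UT) and 0.84 (IL-1α). *Rhbdf2*, which encodes the iRhom2 protein needed for mature ADAM17, was the only one past 2-fold, after IL-1α. It had 1701 against 811 normalized counts and a log2 ratio of 1.07 (0.95 to 1.19). This was 1 of 3 genes, where 4.16% of all genes were 2-fold higher after IL-1α. None of the 3 was past 2-fold in UT cells, where 8.77% of all genes were. *Adam17* itself stayed below 2-fold, with log2 ratios of 0.55 (UT) and 0.84 (IL-1α).

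**Figure D4:**
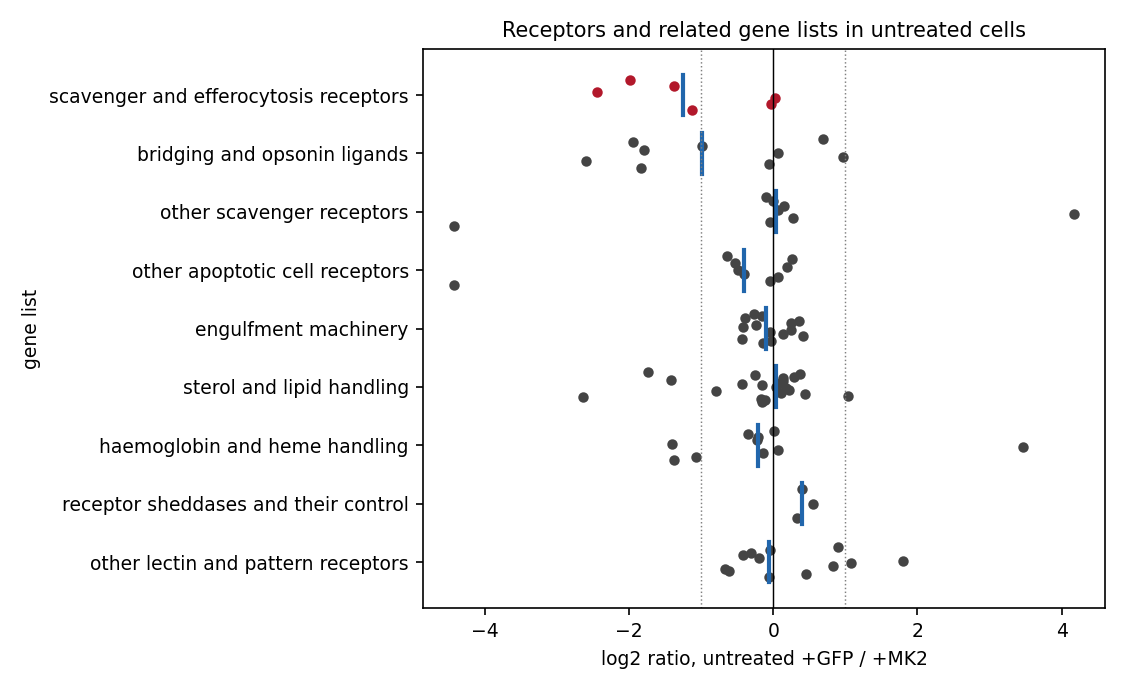
Log2 ratio of untreated +*GFP* to +*MK2* cells (horizontal axis) for each gene with a mean of at least 10 normalized counts in the receptor set (red) and in 8 related lists (grey), with list medians as blue bars and dotted lines at 2-fold. The median of the receptors, -1.25, and that of the bridging ligands, -0.99, lie lowest. *Stab2* stands in both lists of other receptors, and points of *Stab2* and *Olr1* rest on values of 0 or 1.

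Of 10 genes of resident macrophage subsets, *Clec4f*, *Vsig4* and *Gata6* were at 0 like *Timd4* and *Cd163*, and 5 passed the minimum (line medians -0.62 and -0.66). In each comparison of the lines 2 of the 5 were at least 2-fold lower and 1 higher. Of all genes, 5.26 and 3.51% (UT) and 5.57 and 4.16% (IL-1α) were. The lower genes, *Folr2* and *Cd5l*, had 2 to 4 normalized counts in +*GFP* against 18 to 32 in +*MK2* cells. *Cx3cr1* went the other way, with 24 and 34 against 5 and 5. The list also held well-expressed genes below 2-fold, *Trem2* with 5197 to 6224 and *Siglec1* with 825 to 1303 normalized counts.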

How the data were processed

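RNA was measured in 4 libraries. The authors deposited 1 score per gene and library, which are gene counts scaled by a size factor (DESeq2, per the submitters' processing notes and the colour key of the study's heatmap) and then rounded. Column names mention salmon. Versions are not given in the sources used here. The labels describe poly(A) selection, the paper ribo-depletion. The processing notes name GRCm38, but the positions of 0 of the 10 receptors matched GRCm38, while all 10 spans did. Positions are therefore printed without a build.

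The deposited normalization was kept. No count model was used. Log2 ratios used a pseudocount of 1. Intervals are 95% Clopper-Pearson intervals of the share of both counts, with 1 read per normalized count. The spacing of low values pointed to 1.19 to 1.32 reads per normalized count, so true intervals may be narrower. Intervals and the floor of 3 counts cover counting error only. Differences between responses have a delta-method interval. Scripts were tested on simulated data, and the estimate from the spacing missed a scale that puts reads midway between whole numbers.

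The receptors and 14 further lists were chosen with earlier results of these data known. Named are the receptors, *Mapkapk2*, the macrophage genes (one result is not reported here), up to 5 genes per list of at least 2-fold in any of the 4 comparisons, and the 3 genes most like the receptor of widest spread; marker genes at 0, *Tyro3*, *Nt5dc2* and the genes given as not found or without call were named after their values were seen. The motifs were also chosen with results known. Python 3.11.15, scipy 1.17.1 and matplotlib 3.10.9 were used.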

Additional observations from a re-analysis of the deposited data

Results flagged for a closer look

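*Msr1* moved in opposite directions after IL-1α in both lines, each beyond counting error. The log2 response was 0.19 in +*GFP* and -0.11 in +*MK2* cells, from 2960 to 3370 and from 2902 to 2694 normalized counts. Over all scalings and pseudocounts the responses lay between 0.14 and 0.19 and between -0.12 and -0.11. The difference between the lines was not tested, as each condition has 1 library. Both *Msr1* responses lay inside the percentile bands of all genes, from -0.52 to 0.54 (+*GFP*) and from -0.42 to 0.40 (+*MK2*). *Msr1* was not alone in this pattern. Among the other apoptotic cell receptors, *Adgrb1* responded by 0.27 in +*GFP* and -0.20 in +*MK2* cells. *Havcr2* went the other way, at -0.23 and 0.18, and each of these intervals excluded 0. The share of all genes with this pattern was not counted.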

How the results depend on the processing

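The alternatives were pseudocounts of 0.5 and 5, scaling to library totals, by trimmed mean of M values and to *Gapdh*, other minimum values and folds, and counting intervals with 0.75 and 1.3 reads per normalized count. An interval with reads estimated from the spacing of low values, and levels per kb of the longest transcript, were added after seeing the data. None of the called receptors changed sign. Of 292 single values, 288 stayed within their interval and 4 left it, all in the IL-1α-treated comparison of the lines with scaling to *Gapdh*: *Msr1* (0.22), *Cd36* (-1.97), *Scarb1* (-0.11) and *Stab1* (-0.88). This scaling moved the median of all genes in that comparison from 0.03 to -0.07. Many of the 288 values could not have left their interval, so their number says little. The settings of reads per normalized count change the interval but not the ratio, and *Cd163* and *Timd4* were at 0 in all libraries. Of 44 counts of receptors, 42 were within 1.5 times their value. With no minimum value, 5 in place of 3 receptors were past 2-fold after IL-1α, since *Marco* and *Axl* were added. With 0.75 reads per normalized count, 1 in place of 2 intervals excluded 0 for the response of +*MK2* cells, and 2 in place of 3 for that of +*GFP* cells. No paired analysis was possible because each condition has 1 library, and no replicate could be left out. *Marco*, *Axl*, *Cd163* and *Timd4* had at most 5 normalized counts. With 1 read per normalized count, none of their intervals between the lines excluded 0. With 1.3 reads that of *Marco* in UT cells did, with an upper end of -0.39. Summed over both libraries of a line, *Marco* had 0 normalized counts in +*GFP* and 8 in +*MK2* cells, and *Axl* 0 and 6. Whether these genes differ between the lines was not tested.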

Other observations

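Genes that handle the hemoglobin and heme taken up by receptors such as CD163 were expressed, although *Cd163* itself was at 0. Of 11 genes of hemoglobin and heme handling, 10 had a mean of at least 10 normalized counts, of which 3 were at least 2-fold lower and 1 higher in UT +*GFP* cells (median log2 ratio -0.22; 5.26 and 3.51% of all genes) and 2 lower and 1 higher after IL-1α (median -0.12; 5.57 and 4.16%). *Hmox1*, which encodes the heme-degrading enzyme heme oxygenase 1, had normalized counts of 2726 (UT) and 2641 (IL-1α) in +*GFP* and 7214 and 7289 in +*MK2* cells, with log2 ratios of -1.40 and -1.46. The heme transporter gene *Slc48a1* had ratios of -1.38 and -1.28, and the iron exporter gene *Slc40a1* of -1.07 and -0.97. *Hp*, encoding haptoglobin, was higher at 3.46 (interval 2.03 to 7.11) in UT cells, on 32 against 2 normalized counts. *Nfe2l2* was 2-fold higher after IL-1α in +*GFP* cells, at 1.08.

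Several lectin and pattern recognition receptors were higher after IL-1α in +*GFP* cells. Of 14 genes, 12 passed the minimum, and in +*GFP* cells 3 of them were at least 2-fold higher after IL-1α, where 2.25% of all genes were. These were *Tlr2* (2.59), *Clec4e* (2.23) and *Cd14* (1.14 on the log2 scale), which sense bacterial lipopeptides, mycobacterial glycolipids and LPS. In +*MK2* cells their responses were 0.48, 0.17 and 0.20, and none of the 12 reached 2-fold. Between the lines, 2 genes were higher and 0 lower by 2-fold in UT cells (median -0.053), where 3.51 and 5.26% of all genes were, and 4 were higher and 1 lower after IL-1α (median 0.04), where 4.16 and 5.57% were. *Clec4e* had the highest ratios between the lines, at 1.80 (UT) and 3.86 (IL-1α), the latter on 13917 against 956 normalized counts. In the IL-1α-treated comparison *Tlr2* stood at 2.57 and *Cd14* at 1.84. The lower gene was *Clec4a2*, at -1.54, and *Clec4n* was higher in UT cells at 1.08.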
